A study of Mus musculus with 4 samples.

Results

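Notch receptors, their ligands and their best known target genes were examined in cervical motor neurons (MNs) with and without PATZ1, a zinc finger protein. The set held 10 genes, taken by gene symbol from the 23420 symbols of the count data: the receptors *Notch1*, *Notch2* and *Notch3*, the ligands *Dll1*, *Dll3*, *Dll4* and *Jag1*, and the target genes *Hes1*, *Hes5* and *Hey1*. Total RNA was sequenced after removal of ribosomal RNA from 2 WT and 2 *Patz1* KO libraries. The WT cells were E14, a mouse embryonic stem cell (ESC) line, and the *Patz1* KO (genotype *Patz1* -/-) cells were derived from the same line by transfection of a sgRNA and Cas9. All 4 cultures were grown with LIF and 2i inhibitors of MEK and GSK3, formed embryoid bodies, and received 1 µM retinoic acid (RA) and 0.5 µM smoothened agonist (SAG) on day 2 to direct them to MNs. The series' design counts 1 cell line for each genotype, while its methods speak of more than 1 *Patz1* KO line and no label ties a library to one of them, so an effect of the genotype and a difference between lines cannot be told apart. The study's methods describe biological replicates as separate differentiations, while the labels only number the libraries, and the sample titles name ESCs where the source and cell type name MNs.

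Notch signalling passes between touching cells. A ligand of the Delta or Jagged family on one cell binds a receptor on its neighbour, ADAM proteases and γ-secretase then cut the receptor, and the freed intracellular domain joins RBPJ and a Mastermind coactivator on DNA. The *Hes* and *Hey* genes that this complex activates encode basic helix-loop-helix repressors, which hold back proneural genes and so keep neural progenitors from becoming neurons, while the newborn neuron presents the ligand. In the spinal cord the pathway sets how many progenitors leave the cell cycle at a time, and in vessels and mesenchyme it acts through *Notch1* to *Notch3*, *Jag1*, *Dll4* and the *Hey* genes.

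*Hes5* is shown here by its upstream sequence because it is the target whose window held sites for RBPJ, the DNA-binding partner of all Notch receptors. RefSeq windows from 250 bases before to 50 bases after a gene start (GRCm38.p6) were given for 8 of the 10 genes, and not for *Hes1* and *Hey1*. The RBPJ site was searched as GTGGGAA on both strands, and 6.38% of all 32851 windows held it, with 2 or more sites in 0.256%. The *Hes5* window held 2 sites, at -226 to -220 on the reverse strand and at -83 to -77, counted from the start, and none of the other members' windows given held these letters. The stretch below lies at chr4:154960677-154960866 on the plus strand and ends before the gene start, and capitals mark the sites.
Hes5 upstream: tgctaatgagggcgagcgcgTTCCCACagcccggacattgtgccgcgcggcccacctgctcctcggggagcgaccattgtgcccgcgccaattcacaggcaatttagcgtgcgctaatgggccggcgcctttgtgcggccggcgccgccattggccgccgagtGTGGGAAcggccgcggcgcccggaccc
The other motifs were searched in the same way. The N-box CACNAG, a sequence bound by Hes proteins, was in 42.5% of all windows and in those of *Notch1*, *Notch2*, *Notch3*, *Dll1* and *Dll4*; 2 of the 3 matches in *Notch1* overlap each other on opposite strands. The E-box CACGTG was in 7.15% of all windows and in none of the members' windows given. Both can share bases with an RBPJ site, but the *Hes5* window held neither. These matches describe the letters only, since these data hold no measure of binding.

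*Patz1* was measured in all libraries as the check of the labels, at 1363 and 1499 counts for WT and 1154 and 714 counts for *Patz1* KO, which was lower after scaling (log2 fold change -1.04, adjusted p = 1.09e-07 in edgeR). The libraries held 14769104 to 23881522 counts, of which the 10 genes took 0.0647% to 0.0652% in WT and 0.0443% to 0.0547% in *Patz1* KO. The mean chi-square per gene between replicates was 10.5 for WT and 23.4 for *Patz1* KO, above sampling noise in both. Exons of *Notch1*, *Notch2*, *Notch3*, *Dll1* and *Hes5* overlap those of annotated genes that the count data do not list, and the strand setting of the counting was not stated.

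All 10 genes had enough counts to be tested, and 6 passed a threshold of 0.05 on the adjusted p (quasi-likelihood test of edgeR, Benjamini-Hochberg over 14269 genes, used for every adjusted p below unless DESeq2 is named). The target *Hes1* was higher in *Patz1* KO, and the targets *Hes5* and *Hey1*, the receptors *Notch1* and *Notch2* and the ligand *Jag1* were lower. Of all genes tested, 47.9% were called, 24.1% as higher and 23.8% as lower, so 6 of 10 is near the background share, and 5 lower calls against 1 higher call is a description of these genes. In 7 of the 10 genes the values of the genotypes did not overlap, which was so for 74.2% of all genes tested. The median log2 fold change of the 10 genes (*Patz1* KO over WT) was -0.27, against -0.0014 for all genes tested, and the median absolute log2 fold change was 0.31, against 0.34. In these bulk cultures, fewer cells of a type and less RNA per cell cannot be told apart, here and in every result that follows.

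The receptors are given first. *Notch1*, the main receptor of neural progenitors, lies on chromosome 2 (26457903 to 26516663, GRCm38). Its levels in WT were 184.1 and 177.4 CPM (read counts scaled to a common library size, with TMM factors), beside 166.1 and 125.0 CPM in *Patz1* KO. The groups did not overlap, and the *Patz1* KO libraries lay further apart than the WT libraries. The mean level was 180.8 ± 4.72 CPM for WT and 145.5 ± 29.0 CPM for *Patz1* KO (SD, n = 2 each). Its log2 fold change of -0.31 passed the threshold (standard error 0.11, 95% interval -0.54 to -0.082, adjusted p = 0.0254). The call was lost with DESeq2's Wald test (adjusted p = 0.065), without either WT library and without *Patz1* KO replicate 2, where the log2 fold change was -0.12 (adjusted p = 0.211). Without *Patz1* KO replicate 1 it was -0.53 (adjusted p = 4.44e-09). Over its 12 alternatives the adjusted p of *Notch1* ran from 4.44e-09 to 0.211, and 8 of them kept the call.

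*Notch2*, which shares the receptor's architecture and is found in progenitors, mesenchyme and glia, lies on chromosome 3 (98013527 to 98150361). It had 117.9 and 125.8 CPM in WT and 69.2 and 58.2 CPM in *Patz1* KO. Both *Patz1* KO libraries were far below both WT libraries. The level fell from 121.9 ± 5.53 to 63.7 ± 7.75 CPM (SD, n = 2 each), which was 1.91-fold lower (log2 fold change -0.93, standard error 0.098, 95% interval -1.14 to -0.73, adjusted p = 5.26e-07). *Notch2* was called lower in all 12 alternative fits, and leaving out single libraries kept the log2 fold change between -1.06 and -0.81.

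*Notch3*, a receptor of neural progenitors that is best known from the mural cells of vessels, lies on chromosome 17 (32120820 to 32166852). Its level was 72.1 and 69.6 CPM in WT and 87.7 and 68.6 CPM in *Patz1* KO. One *Patz1* KO library lay above both WT libraries and the other below both, so the groups overlapped. The log2 fold change was 0.15 (95% interval -0.080 to 0.37, adjusted p = 0.278). It went from -0.04 without *Patz1* KO replicate 1 to 0.31 without *Patz1* KO replicate 2, and in the latter fit alone *Notch3* was called higher (adjusted p = 0.00156, against a range up to 0.752 over the alternatives).

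Of the 10 genes, all but *Hes1* were lower in *Patz1* KO replicate 2 than in replicate 1, the ligands, *Hes5* and *Hey1* as well as the 3 receptors. The receptors have long transcripts, with 8089 to 14232 bases of annotated exon. Between those libraries, the median log2 ratio (replicate 2 over replicate 1) was 0.14 for genes with under 2000 exon bases and -0.076 for genes with over 8000. *Rn45s*, *Rpph1* and *Rmrp*, abundant non-coding RNAs, took 9.65% of the counts of *Patz1* KO replicate 2 and 6.33% to 6.81% of those of the other libraries. The part of the non-coding RNAs in the receptors' values was not tested. In 1 fit added after the data were seen, the trend with exon length was removed from each library, and the receptors kept their calls: there *Notch1* had a log2 fold change of -0.24 (adjusted p = 0.0378), *Notch2* -0.88 (adjusted p = 4.3e-08) and *Notch3* 0.16 (adjusted p = 0.164).

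**Figure D1:**
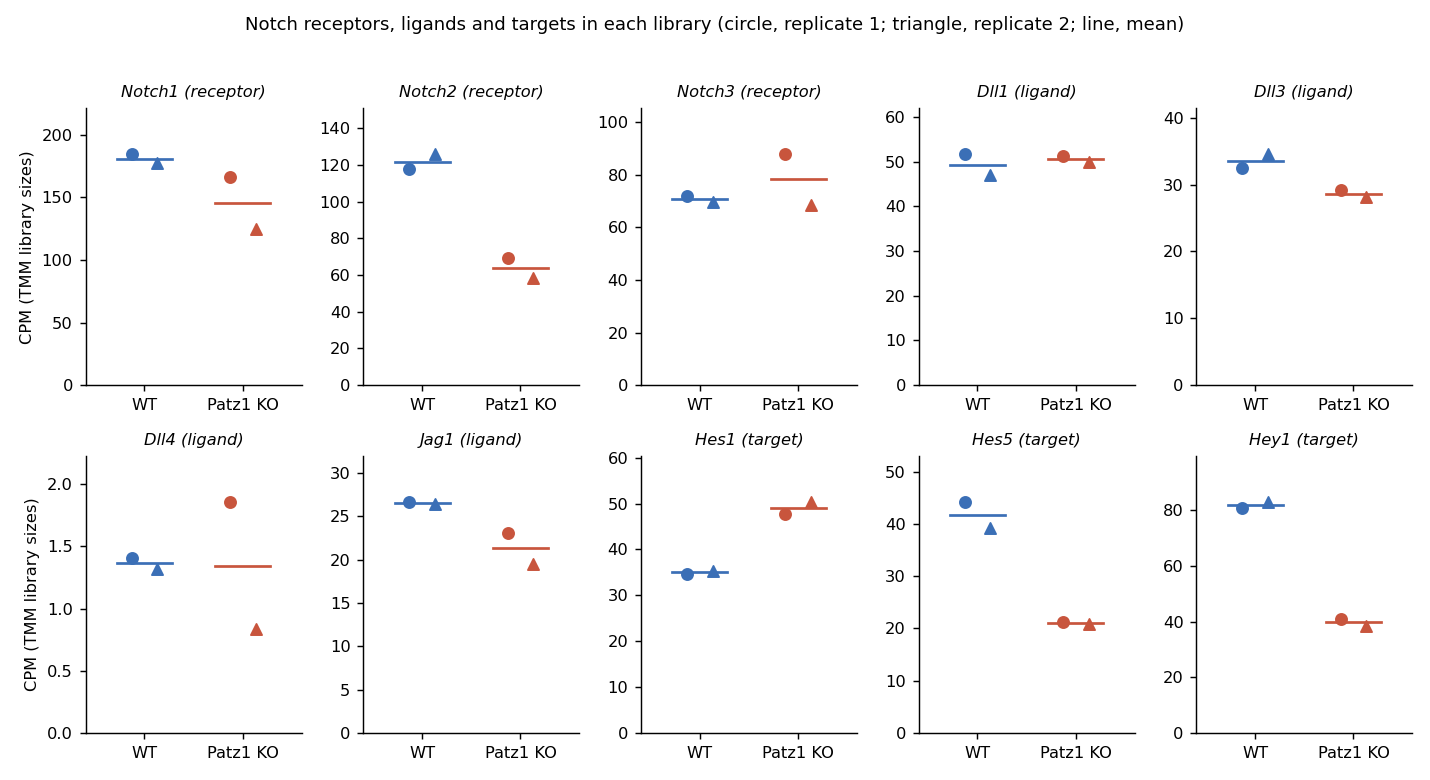
CPM (TMM library sizes, linear axes from 0, one scale per gene) of the 10 genes in each library. Blue marks WT and red *Patz1* KO, circles are replicate 1, triangles replicate 2, and lines the group means. All genes except *Hes1* were lower in *Patz1* KO replicate 2 than in replicate 1, by an amount that ranged from 166.1 against 125.0 CPM for *Notch1* to 21.2 against 20.8 CPM for *Hes5*.

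The balance between the receptors does not depend on the scaling of the libraries. Per kb of exon, *Notch2* made up 33.4% and 35.6% of the sum of the 3 receptors in WT and 22.2% and 23.8% in *Patz1* KO. *Notch3* made up 27.2% and 26.3% in WT and 37.5% and 37.4% in *Patz1* KO. *Notch1* made up 38.8% ± 0.970 in WT and 39.6% ± 1.13 in *Patz1* KO (SD, n = 2 each). So *Notch3* took the larger share over *Notch2* in both *Patz1* KO libraries and the smaller one in both WT libraries. In raw counts there were 0.611 and 0.553 *Notch3* reads for each *Notch2* read in WT and 1.27 and 1.18 in *Patz1* KO. The shares depend on the length used. With the longest transcript as the length, *Notch1* made up 48.2% in WT and 49.1% in *Patz1* KO (means). In the same order, *Notch2* then made up 29.4% and 19.6%, and *Notch3* 22.4% and 31.3%. These shares and ratios are descriptions without a test.

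Among the ligands, *Jag1* was lower in *Patz1* KO, and the 3 Delta-like genes were not called. *Dll1*, the main ligand presented by newborn spinal neurons, lies on chromosome 17 (15367354 to 15376872). Its counts of 769 and 748 for WT and of 1244 and 839 for *Patz1* KO came to 49.3 ± 3.24 and 50.6 ± 0.914 CPM (SD, n = 2 each). Both *Patz1* KO values in CPM lay between the WT values. With a log2 fold change of 0.04 the gene was not called (95% interval -0.16 to 0.24, adjusted p = 0.76), and a change of more than 1.18-fold upward lay outside the interval.

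*Dll3*, a divergent Delta that acts inside the cell and does not activate receptors on neighbours, lies on chromosome 7 (28293553 to 28302238). Its values were 32.5 and 34.5 CPM in WT and 29.2 and 28.1 CPM in *Patz1* KO. The groups did not overlap, but the difference did not pass the threshold (log2 fold change -0.22, 95% interval -0.44 to -0.0035, adjusted p = 0.0869). With the exon length trend removed it did pass, at -0.27 (adjusted p = 0.0327), and the adjusted p of the other alternatives reached 0.46.

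*Dll4*, a ligand of endothelial tip cells and of V2 interneuron precursors, lies on chromosome 2 (119325784 to 119335962) and was near the lower end of what these libraries could measure. The WT libraries had 21 counts each, and the *Patz1* KO libraries 45 and 14. The *Patz1* KO libraries lay on either side of WT, and its exons overlap those of the antisense gene *Gm14207*, which had 3 to 10 counts per library. The log2 fold change of 0.04 had a 95% interval from -0.80 to 0.88, so at this depth no difference could be detected (adjusted p = 0.941).

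*Jag1*, a ligand of the Jagged family, lies on chromosome 2 (137081456 to 137116644). It had 26.6 and 26.4 CPM in WT and 23.1 and 19.5 CPM in *Patz1* KO. Both *Patz1* KO libraries were lower, and the WT libraries were almost equal. *Jag1* was thus lower, with a log2 fold change of -0.31 (standard error 0.12, 95% interval -0.56 to -0.058, adjusted p = 0.0407). It was called in 7 of the 12 alternative fits, and lost with DESeq2 (adjusted p = 0.175), without a filter on low counts (adjusted p = 0.0518), without either WT library and without *Patz1* KO replicate 2, where it was -0.19 (adjusted p = 0.148). The lowest adjusted p over these fits was 0.00183.

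All 3 target genes were called, and *Hes5* and *Hey1* lay in the opposite direction from *Hes1*. *Hey1*, a repressor that Notch activates in progenitors and vessels, lies on chromosome 3 (8663359 to 8667256). It had 80.9 and 82.8 CPM in WT and 41.0 and 38.3 CPM in *Patz1* KO. The libraries of a genotype lay close together and the genotypes far apart. *Hey1* fell from 81.9 ± 1.36 to 39.7 ± 1.88 CPM (SD, n = 2 each), which was 2.06-fold lower (log2 fold change -1.04, standard error 0.094, 95% interval -1.24 to -0.85, adjusted p = 9.37e-08). It was the gene of the 10 with the largest absolute log2 fold change in the edgeR fit.

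*Hes5*, the effector of Notch in spinal progenitors, lies on chromosome 4 (154960923 to 154962371), downstream of the sequence with the RBPJ sites printed above. It had 44.2 and 39.2 CPM in WT and 21.2 and 20.8 CPM in *Patz1* KO. Again no *Patz1* KO library came near a WT library. *Hes5* was 1.99-fold lower, with 41.7 ± 3.48 CPM in WT and 21.0 ± 0.250 CPM in *Patz1* KO (SD, n = 2 each) and a log2 fold change of -0.99 (standard error 0.11, 95% interval -1.22 to -0.76, adjusted p = 9.13e-07).

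*Hes1*, the other main Hes repressor of neural progenitors and one that also responds to signals outside Notch, lies on chromosome 16 (30064384 to 30067796). It had 34.8 and 35.3 CPM in WT and 47.7 and 50.3 CPM in *Patz1* KO. Both *Patz1* KO libraries were above both WT libraries, the opposite of *Hes5* and *Hey1*. *Hes1* was 1.40-fold higher (35.0 ± 0.403 CPM in WT, 49.0 ± 1.80 CPM in *Patz1* KO, SD, n = 2 each), with a log2 fold change of 0.48 (standard error 0.097, 95% interval 0.28 to 0.69, adjusted p = 0.000537). The calls of all 3 targets held in all 12 alternative fits. Leaving out single libraries, *Hes1* stayed between 0.45 and 0.53, *Hes5* between -1.07 and -0.90 and *Hey1* between -1.09 and -0.99.

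**Figure D2:**
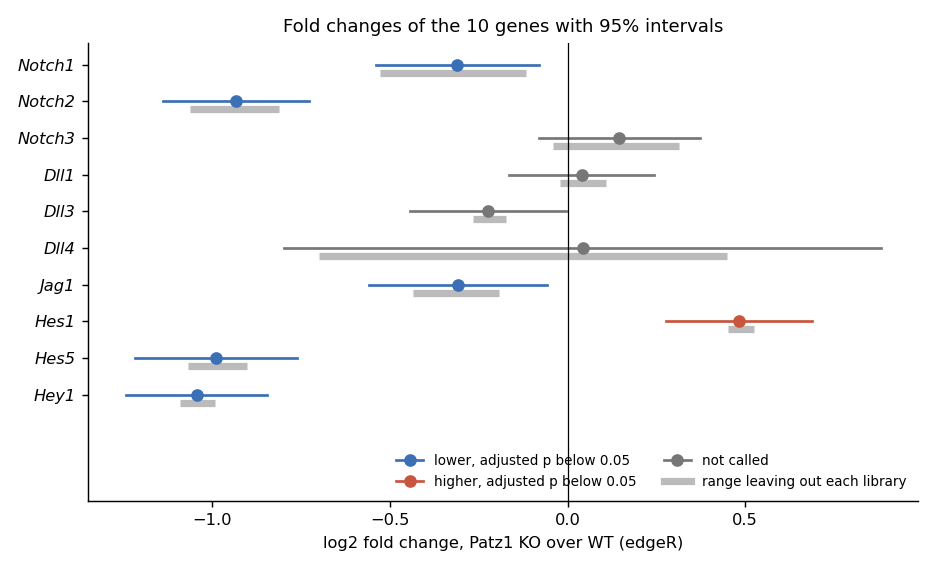
Log2 fold changes (*Patz1* KO over WT, edgeR) of the 10 genes with their 95% intervals, and as grey bars the range over the fits that leave out a library. *Notch2*, *Hes5* and *Hey1* lie near -1 and *Hes1* at 0.48 with grey bars that stay clear of 0, while the bars of *Notch3*, *Dll1* and *Dll4* cross 0.

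With the targets called in different directions, *Hes1* was higher against each of the others in both *Patz1* KO libraries. The ratio of *Hes1* to *Hes5* counts was 0.787 and 0.901 in WT, and it was 2.26 and 2.42 in *Patz1* KO. Against *Hey1* counts, the same ratio for *Hes1* was 0.430 and 0.426 in WT, and it was 1.17 and 1.31 in *Patz1* KO. The ratio of *Hes5* to *Hey1* was 0.546 and 0.473 in WT and 0.516 and 0.543 in *Patz1* KO, with overlapping groups. Per kb of exon, *Hes1* made up 23.0% and 24.3% of the sum of the 3 targets in WT and 45.5% and 47.8% in *Patz1* KO. With the longest transcript as the length, the share of *Hes1* was 26.4% in WT and 50.4% in *Patz1* KO (means). These ratios and shares have no test of their own.

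In levels per kb of exon (mean CPM divided by the annotated exon length), the targets led the set in WT, with *Hes5* at 30.6 ± 2.56, *Hey1* at 25.1 ± 0.417 and *Hes1* at 17.2 ± 0.198 CPM per kb (SD, n = 2 each). *Notch1* followed at 12.7, *Dll3* at 11.8, *Dll1* at 11.7 and *Notch2* at 11.3 CPM per kb, and the library ranges of the last 3 overlapped. *Notch3* was at 8.76, *Jag1* at 4.55 and *Dll4* at 0.354 CPM per kb. Levels of the ligands and receptors were thus within a few-fold of each other, apart from *Dll4*. In *Patz1* KO the order of the targets was *Hes1* at 24.1 ± 0.886, *Hes5* at 15.4 ± 0.183 and *Hey1* at 12.1 ± 0.577 CPM per kb (SD, n = 2 each). *Dll1* at 12.0, *Notch1* at 10.2, *Dll3* at 10.1 and *Notch3* at 9.66 CPM per kb came next in the list, with *Notch2* at 5.91, *Jag1* at 3.66 and *Dll4* at 0.349 CPM per kb last. The libraries of *Hey1* and *Dll1* overlapped there, and *Notch1*, *Dll3* and *Notch3* were not separated by the spread between libraries. With the longest transcript as the length, *Hey1* (33.8 CPM per kb) and *Hes5* (32.7 CPM per kb) changed places in WT, and the ranges of their libraries overlapped. With that length *Dll1* (13.8 CPM per kb) also came before *Dll3* (12.8 CPM per kb) in WT, with overlapping libraries. In *Patz1* KO *Notch1* (15.3 CPM per kb) came before *Dll1* (14.1 CPM per kb), again with overlapping libraries. The libraries of *Hes5* (16.5 CPM per kb) and *Hey1* (16.4 CPM per kb) in *Patz1* KO overlapped as well with that length.

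**Figure D3:**
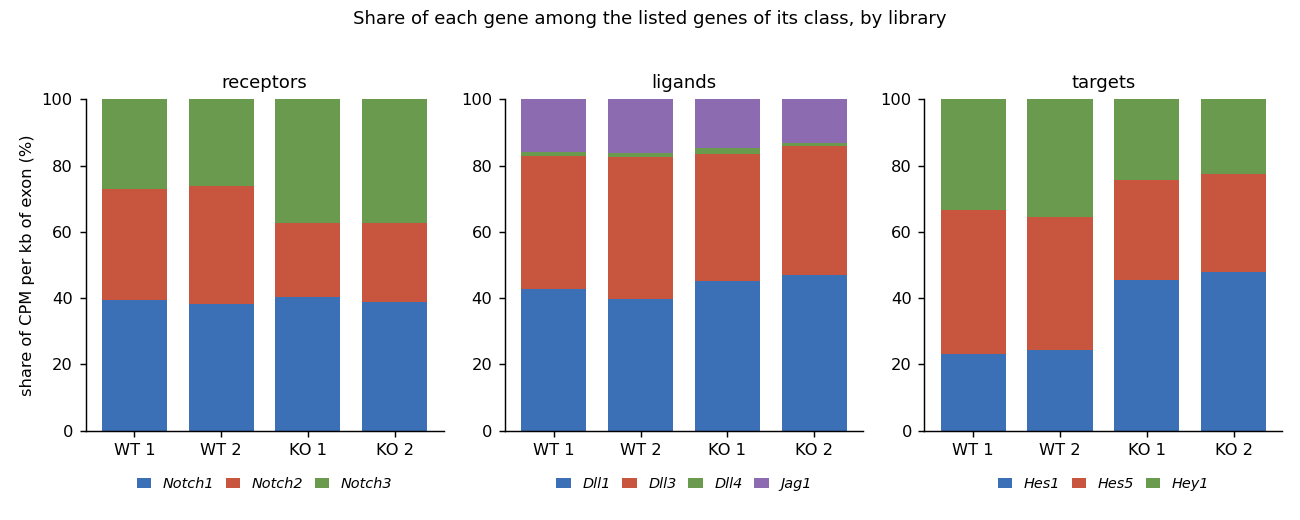
Share (%) of each gene in the sum of its class, from CPM per kb of exon, in each of the 4 libraries. *Hes1* took 23.0% and 24.3% of the targets in WT and 45.5% and 47.8% in *Patz1* KO. *Notch3* took 26.7% of the receptors in WT and 37.5% in *Patz1* KO (means). Among the ligands, *Dll1* was at 41.2% in WT and 46.1% in *Patz1* KO.

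Other genes of the pathway were taken from a list of 52, and 50 passed the filter on low counts. Of these, 19 were higher, 8 lower and 23 not called, with a median log2 fold change of 0.11, beside the 24.1% higher and 23.8% lower of all genes tested. Among the paralogs of the receptors and ligands, 3 of 5 tested were called, all of them higher. *Dlk1*, an atypical ligand without the domain that activates the receptor, had 27.9 and 25.6 CPM in WT, against 110.2 and 99.9 CPM in *Patz1* KO (log2 fold change 1.97, adjusted p = 8.12e-11). *Jag2*, the other Jagged ligand and one that MNs express, went from 15.7 to 24.2 CPM (log2 fold change 0.63, adjusted p = 0.000617), the opposite direction from *Jag1*. *Dner*, a neuronal transmembrane protein related to the Delta ligands, had a log2 fold change of 0.62 (adjusted p = 7.36e-05). *Notch4*, the receptor of endothelium, was at 4.74 ± 0.0568 and 5.60 ± 0.590 CPM (SD, n = 2 each) and was not called (log2 fold change 0.25, adjusted p = 0.344).

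The remaining *Hes* and *Hey* genes did not follow *Hes5* and *Hey1* as a group. *Heyl*, a *Hey* paralog of vessels and muscle, had 56 and 63 counts in WT, against 24 and 7 for *Patz1* KO, and was lower (log2 fold change -2.36, standard error 0.35, adjusted p = 2.91e-05). *Hes6*, which opposes Hes1 and is expressed in differentiating neurons, was higher (log2 fold change 0.38, adjusted p = 0.00267). *Hey2* was higher as well (log2 fold change 0.55, adjusted p = 0.0375), but was called in 1 of the 4 fits that left out a library. *Hes3* (1 to 4 counts per library) and *Hes7* (0 to 2 counts per library) could not be tested.

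Genes that modify the receptors or ligands were called in both directions. Among the fringe and related sugar transferases, *Lfng*, which biases receptors toward Delta ligands, was higher (log2 fold change 0.73, adjusted p = 6.45e-05), as was *Eogt* (0.55, adjusted p = 0.0209), while *Mfng*, another fringe, was lower (-0.42, adjusted p = 0.0031). The ligand ubiquitin ligases *Mib2* (0.94, adjusted p = 2.27e-06) and *Neurl1b* (0.81, adjusted p = 0.00304) were higher and *Neurl1a* lower (-0.46, adjusted p = 0.0312). *Mib1*, the most counted gene of this class (168.3 CPM in WT, against 23.4 CPM for *Mib2*), was not called (-0.087, adjusted p = 0.486). The calls of *Eogt* and *Neurl1a* were lost with DESeq2 (adjusted p = 0.0883 and 0.155) and held in 2 and 1 of the 4 fits that left out a library, with adjusted p up to 0.287 and 0.158. *Adam10*, the protease that makes the first ligand-induced cut, was lower (-0.38, adjusted p = 0.00208), *Aph1a*, a subunit of γ-secretase, was higher (0.29, adjusted p = 0.0104), and the other 8 cleavage genes were not called. The calls of *Mfng*, *Adam10* and *Aph1a* held in 3 of those 4 fits. *Aph1b* and *Aph1c* are near-identical copies, so the split of reads between them is uncertain.

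In the nucleus, *Rbpj* itself, named here after its value was seen, was not called (log2 fold change -0.15, adjusted p = 0.15). Of its 6 listed partners, *Maml3* (0.32, adjusted p = 0.00879) and *Kat2b* (0.66, adjusted p = 8.17e-05) were higher and *Ep300*, a histone acetyltransferase, was lower (-0.44, adjusted p = 0.000592). The call of *Maml3* held in 2 of the 4 fits that left out a library (adjusted p up to 0.0949). Among the corepressors *Tle3* was higher (0.55, adjusted p = 9.1e-05) and *Tle1* (-0.37, adjusted p = 0.0037) and *Hdac1* (-0.39, adjusted p = 0.00143) were lower, the call of *Tle1* in 3 of those 4 fits. Of 9 genes of receptor turnover and inhibition, 6 were higher and 1 was lower. The lower gene was *Dtx4*, the most counted of this class, at 419.6 CPM in WT and 281.5 CPM in *Patz1* KO (-0.58, adjusted p = 8.67e-05). *Dtx1*, a ubiquitin ligase that binds the receptor's intracellular domain, led the higher genes (1.15, adjusted p = 3.14e-06), with *Dtx3* (0.82, adjusted p = 6.98e-06) and *Fbxw7*, which marks the intracellular domain for degradation (0.67, adjusted p = 5.97e-06). The call of *Dtx2* (0.32, adjusted p = 0.0309) was lost with DESeq2 (adjusted p = 0.12). *Nrarp*, a direct Notch target that feeds back on the pathway and was named after its value was seen, was higher (0.33, adjusted p = 0.00973), a call that held in 2 of the 4 fits that left out a library (adjusted p up to 0.124).

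**Figure D4:**
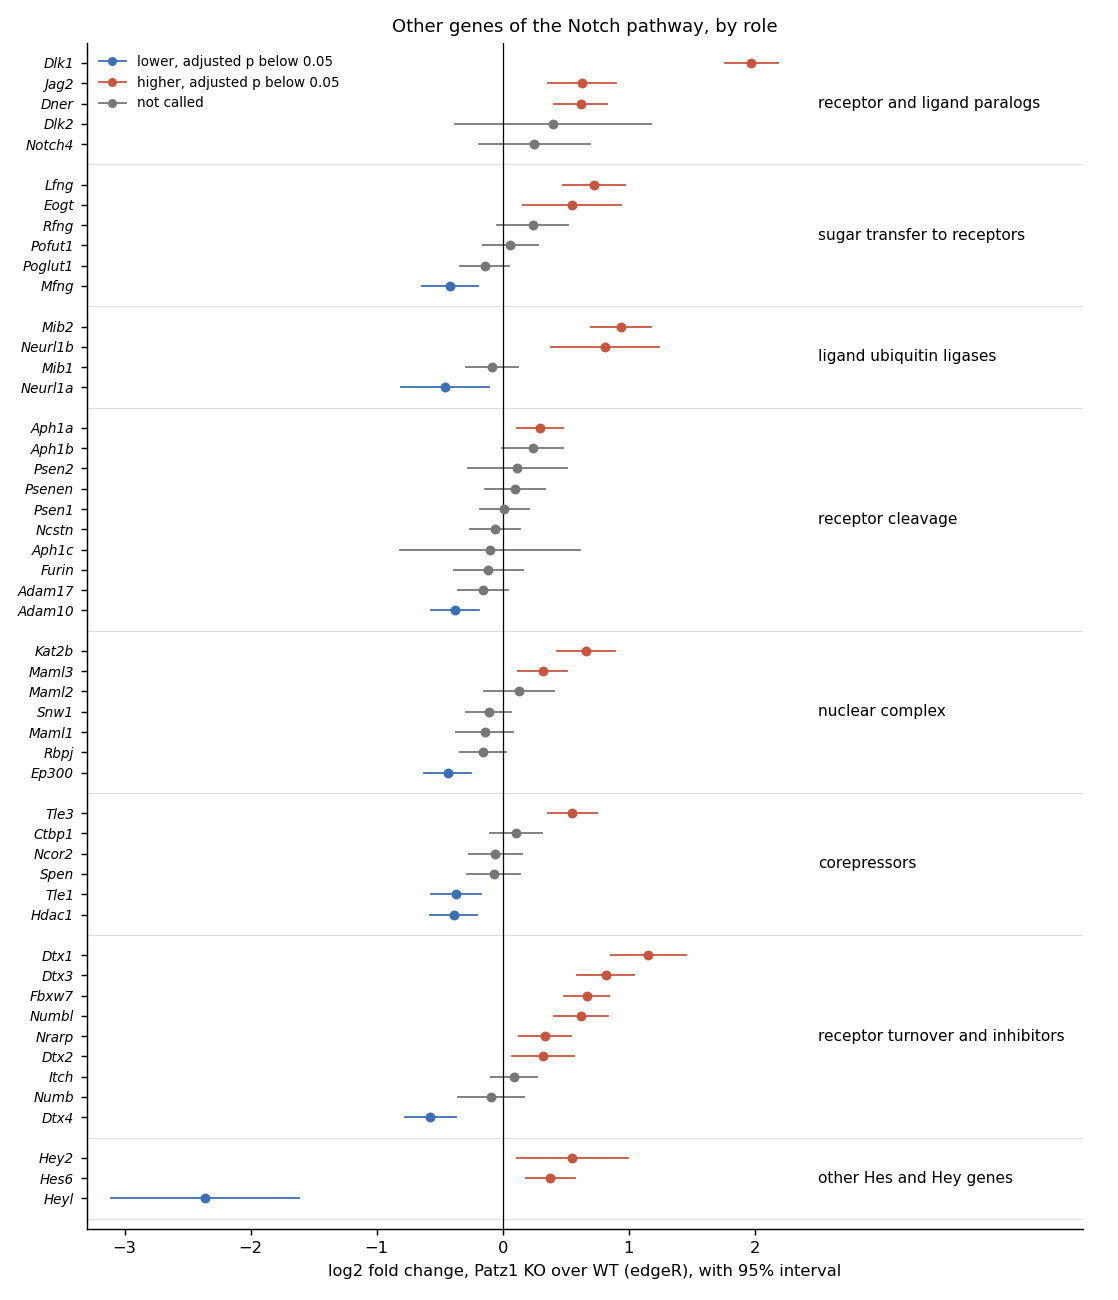
Log2 fold changes (*Patz1* KO over WT, edgeR) with 95% intervals of the 50 other pathway genes tested, grouped by role. *Dlk1* at 1.97 and *Heyl* at -2.36 mark the ends of the range, and most genes of receptor cleavage lie near 0.

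The cultures were checked against marker genes of the cells they could hold. The counts of called markers, here and for the non-neural cells below, stand beside 24.1% higher and 23.8% lower of all genes tested. They are descriptions of these lists. All 8 MN markers had counts in every library, with *Slc18a3*, *Lhx3* and *Isl1* the highest by their mean over all 4 libraries. Of the 8, 7 were higher in *Patz1* KO, and the list summed to 643 and 599 CPM in WT and 1031 and 939 CPM in *Patz1* KO. The exception was *Isl1*, at 132.2 and 134.1 CPM in WT and 111.5 and 121.8 CPM in *Patz1* KO. It was not called (log2 fold change -0.19, adjusted p = 0.0768). Progenitors are the cells in which Notch is active, and all 10 of their markers had counts in every library. These markers, led by *Vim*, *Fabp7* and *Nes*, summed to 2119 to 2236 CPM in WT and 2212 to 2267 CPM in *Patz1* KO, with 5 higher and 2 lower. The near-equal sums hide opposite changes. *Fabp7* was higher (445.5 CPM in WT, 711.6 CPM in *Patz1* KO, adjusted p = 4.37e-05) and *Nes* lower (492.1 and 298.2 CPM, adjusted p = 1.43e-05). *Vim* was not called (848.1 and 825.5 CPM, adjusted p = 0.786). The 8 proneural and newborn neuron genes, the usual targets of Hes repression, summed to 360 and 362 CPM in WT and 220 and 284 CPM in *Patz1* KO, with 5 lower (*Nhlh2*, *Neurod4* and *Neurog2* among them) and 1 higher. More genes of this list were lower than higher. For 8 postmitotic neuron genes the sums were 4033 to 4280 CPM in WT and 5870 to 6177 CPM in *Patz1* KO, with 4 higher and 1 lower.

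Markers of non-neural cells were lower beside the lower *Notch1*, *Notch2*, *Jag1*, *Hes5*, *Hey1* and *Heyl*. All 8 genes of mesenchyme and mural cells were lower in *Patz1* KO, *Col3a1*, *Col1a2* and *Pdgfra* among them, and they summed to 205 to 225 CPM in WT and 37.3 to 44.4 CPM in *Patz1* KO, with none at 0 in any library. Of 8 endothelial genes 5 were lower, and their sum was 13.6 to 16.7 CPM in WT and 5.42 to 7.63 CPM in *Patz1* KO, so endothelial markers were low in all libraries. Of 8 endoderm genes 7 were tested and 5 were lower (42.9 to 50.2 CPM in WT, 7.67 to 7.69 CPM in *Patz1* KO). The part of these cells in the lower levels of the Notch genes was not tested. Presomitic genes, where Notch drives segmentation, were low or absent. *Mesp1* and *Msgn1* had no count in any library, and *Uncx*, the most counted of the list, had 26 to 58 counts per library. The list of 8 summed to 3.42 to 5.72 CPM over all libraries. The 6 pluripotency genes summed to 5.40 to 8.48 CPM over all libraries.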

How the data were processed

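Total RNA of 4 cultures of cervical MNs (2 WT, 2 *Patz1* KO; mouse E14 ESCs) was sequenced as stranded libraries. Per the labels, the submitters' processing notes name TopHat2 (2.1.1), Bowtie2 (2.3.1), featureCounts (1.6.2), DESeq2 and mm10, and the authors deposited raw read counts per gene symbol, 1 library per file, with no normalization. The annotation and strand setting of the counting are not given in the sources used here. Every line names a gene.

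Counts were fitted with edgeR 4.0.16 (limma 3.58.1, R 4.3.3): TMM, filterByExpr (minimum count 10, 14269 genes left), glmQLFit and glmQLFTest on genotype, Benjamini-Hochberg over all genes, threshold 0.05. DESeq2 1.42.0's Wald test, which the study's methods name, was an alternative, as were its size factors, library size alone, no filter, at least 10 counts in every library, robust estimation, the replicate number as a block, and leaving out each library. Removal of the exon length trend (loess, span 0.3; 94.0% of genes had a length) was added after the data were seen. CPM used TMM library sizes, and exon lengths and positions came from GENCODE M21 (GRCm38). Standard errors were the absolute log2 fold change over the square root of F. With 2 libraries against 2, an exact permutation test cannot go below 0.333, so none was run, and depth limits genes with few counts, such as *Dll4*. The common biological coefficient of variation was 7.71%. Tests were checked on simulated counts.

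The 10 genes and all lists were chosen with earlier results of these data known. Named by rule besides them were the listed paralogs, up to 3 called genes of each role with the smallest p, and the 3 most counted genes of some marker lists. Other genes, such as *Rbpj*, *Nrarp*, *Dtx2*, *Dtx4*, *Mib1*, *Mesp1* and *Msgn1*, were named after their values were seen. 1 of the marker lists is not reported here. Numbers 1 and 2 were not used as pairs, since nothing says that a number marks a shared culture or day. The deviations of same-numbered libraries had a correlation of 0.0414, which with 2 libraries per group cannot show whether they were paired. Protein sequences were not used here, so no identities are given. Python 3.11.15, numpy 2.4.6, pandas 2.3.3 and matplotlib 3.10.9 made tables and plots.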

Additional observations from a re-analysis of the deposited data

How the results depend on the processing

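The calls of *Notch2*, *Hes1*, *Hes5* and *Hey1* held in all 12 alternatives. The members called higher went from 1 to 2 and those called lower from 3 to 5 over the fits that leave out 1 library, which leaves a lone library assumed to vary like the other group. The 2 called higher came without *Patz1* KO replicate 2, where *Notch3* joined *Hes1*. DESeq2's Wald test called 3 lower, without *Notch1* and *Jag1*. Without a library, other pathway genes called lower numbered 5 to 9 and called higher 14 to 19, and all genes called 4521 to 7816, against 6837. Over the other alternatives all genes called were 5118 (DESeq2) to 7363 (the replicate block). The block changed no call of the 10 genes. Signs turned only for genes that were not called in the edgeR fit. Leaving out single libraries, the log2 fold change of *Notch3* ran from -0.041 to 0.31, of *Dll1* from -0.021 to 0.11 and of *Dll4* from -0.70 to 0.45, with reversals without *Patz1* KO replicate 1 (*Notch3*, *Dll4*) and without WT replicate 2 (*Dll1*, and *Dll4* at -0.010). With the exon length trend removed *Dll1* was at -0.0083 and *Dll4* at -0.00087, and with the replicate block *Dll4* was at -0.037. The cause was not tested.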
